A study of Mus musculus with 12 samples.

Results

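The comparison described here is the interaction of genotype and day: for each gene, the log2 difference between Trim33-deficient and control embryoid bodies on day 2.5, less the same difference on day 2. All 12 libraries of the series enter it, chosen by genotype and day as their titles give them. Embryoid bodies are the aggregates that embryonic stem cells form in suspension as they start to differentiate. The 4 groups of 3 libraries were control on day 2, Trim33-deficient on day 2, control on day 2.5 and Trim33-deficient on day 2.5. All came from mouse embryonic stem cell lines of an outbred strain at passages 8 to 10, which per the labels' protocols carried the Trim33-flox allele on both chromosomes and the UbcCreERT2 transgene, a Cre recombinase that acts in all cells once tamoxifen is added. Loss of Trim33 was started with 4OH-Tamoxifen on day 1. The day 2.5 libraries thus also lay farther from the start of loss than the day 2 libraries. In the interaction, the stage of differentiation and the time since the start of loss cannot be told apart. The labels call the controls wildtype in genotype, and whether the control cultures received tamoxifen is not given in the sources used here. Before differentiation the cells grew feeder-free with LIF and 2i, and the labels do not say how many lines were used.

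Trim33 is a nuclear protein of the TIF1 family, with a RING ubiquitin ligase domain and a chromatin reader that binds modified histone H3. It binds the SMAD proteins that carry signals of Nodal, Activin, TGF-beta and BMP into the nucleus, and is known for opening silent differentiation genes to Nodal signals. During these days of culture, embryoid bodies leave naive pluripotency, pass through a primed epiblast-like state and begin to express genes of the primitive streak, where mesoderm and endoderm arise.

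Trim33 itself was low in every Trim33-deficient library on both days. It stood at 275, 261 and 277 CPM (gene counts corrected for library size) in control replicates 1, 2 and 3 and at 60.5, 69.6 and 68.04 CPM in the Trim33-deficient libraries on day 2. On day 2.5 the values were 264, 247 and 239 CPM and 54.4, 57.6 and 62.8 CPM. The genotypes did not overlap on either day, and the interaction was -0.07 ± 0.09 on the log2 scale (SE), with a 95% interval of -0.26 to 0.12 (adjusted p = 0.724, by the quasi-likelihood test of edgeR, Benjamini-Hochberg adjusted). Counts over the whole gene do not show which of the remaining messages came from the recombined allele.

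Libraries held 10066338 to 16529627 counts assigned to genes. Rn45s, the precursor of ribosomal RNA, made up 0.609 to 1.67% of counts in 10 libraries. Its share was 7.87% in replicate 1 of the Trim33-deficient bodies on day 2 and 11.9% in replicate 2 of the control bodies on day 2.5. Genes of the hypoxia and glycolysis list were high in control replicate 2 on both days, by 0.63 and 0.45 on the log2 scale over their mean in all libraries. These 3 libraries stood apart from their groups, and counts without them are given below. Pou5f1, a defining gene of pluripotent cells, stood between 766 and 976 CPM in all 12 libraries. Other pluripotency genes, named here after their values were seen, varied to different degrees. Lin28a ran from 771 to 1002 CPM, Sall4 from 370 to 478 CPM, Sox2 from 161.5 to 234 CPM and Nanog from 65.2 to 209 CPM.

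Between day 2 and day 2.5 the effect of Trim33 loss moved up for 397 genes and down for 178 of 14356 tested, at an adjusted p under 0.05. These are 2.77% and 1.24% of the genes tested, and 3003 genes had an unadjusted p under 0.05. Of the calls, 163 were more than 2-fold higher and 11 more than 2-fold lower. The median interaction over all genes tested was -0.00347 on the log2 scale. For the 397 genes the median effect of Trim33 loss went from 0.16 on day 2 to 1.07 on day 2.5, and for the 178 genes it went from -0.09 to -0.54.

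**Figure D1:**
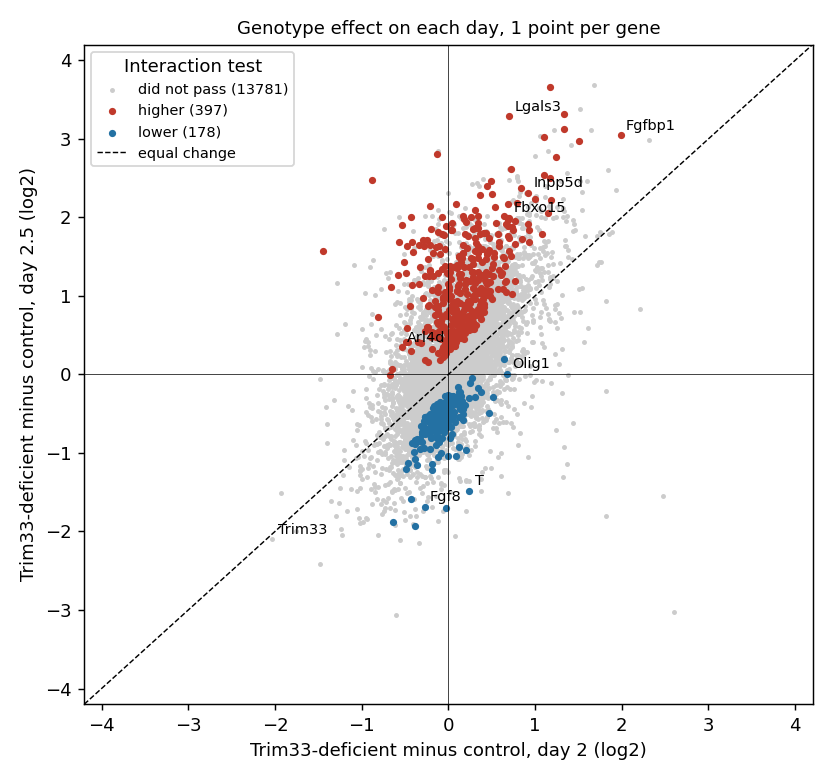
Log2 effect of Trim33 loss on day 2 (horizontal) against day 2.5 (vertical), 1 point per gene, with genes past the interaction test in red (397 higher) and blue (178 lower) and the dashed line marking an equal effect on both days. Red genes lie above the line and blue genes below it, nearly all farther from 0 on day 2.5, while Trim33 lies close to the line. Of all genes, 1 lies outside the axes.

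The effect was larger in size on day 2.5 for 558 of the 575 genes and smaller for 17. The makeup of the calls by day is a description, since the interaction is computed from the same libraries as the effects on each day. On day 2, 853 genes rose and 560 fell with Trim33 loss (5.94% and 3.90% of those tested), and on day 2.5, 3165 rose and 2978 fell (22.0% and 20.7%). Of the 575 genes, 414 (72.0%) passed on day 2.5 and not on day 2, 145 passed on both days in the same direction with a larger effect on day 2.5, and 8 passed on day 2 and not on day 2.5. The other genes were 6 with opposite effects on the 2 days, 1 with a smaller effect on day 2.5 and 1 that passed on neither day. Most genes that passed on 1 day were not shown to differ between the days: 4928 genes passed on day 2.5 and not on day 2, and 414 of these passed the interaction test.

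The same genes can be read along time within each genotype. From day 2 to day 2.5, 1177 genes rose and 1136 fell in control bodies (8.20% and 7.91%), and 1305 rose and 995 fell in Trim33-deficient bodies (9.09% and 6.93%). Of the 397 genes with a higher effect, 171 rose in Trim33-deficient bodies and did not pass in control, 161 fell in control and did not pass in Trim33-deficient bodies, and 32 did both. A further 25 rose in both genotypes, 5 fell in both and 3 passed in neither. Of the 178 genes with a lower effect, 90 rose in control and did not pass in Trim33-deficient bodies, 56 fell in Trim33-deficient bodies and did not pass in control, and 8 did both. Another 8 rose in both genotypes, 1 fell in both and 15 passed in neither. The calls thus hold both genes that moved with time mainly in control bodies and genes that moved mainly in Trim33-deficient bodies.

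**Figure D2:**
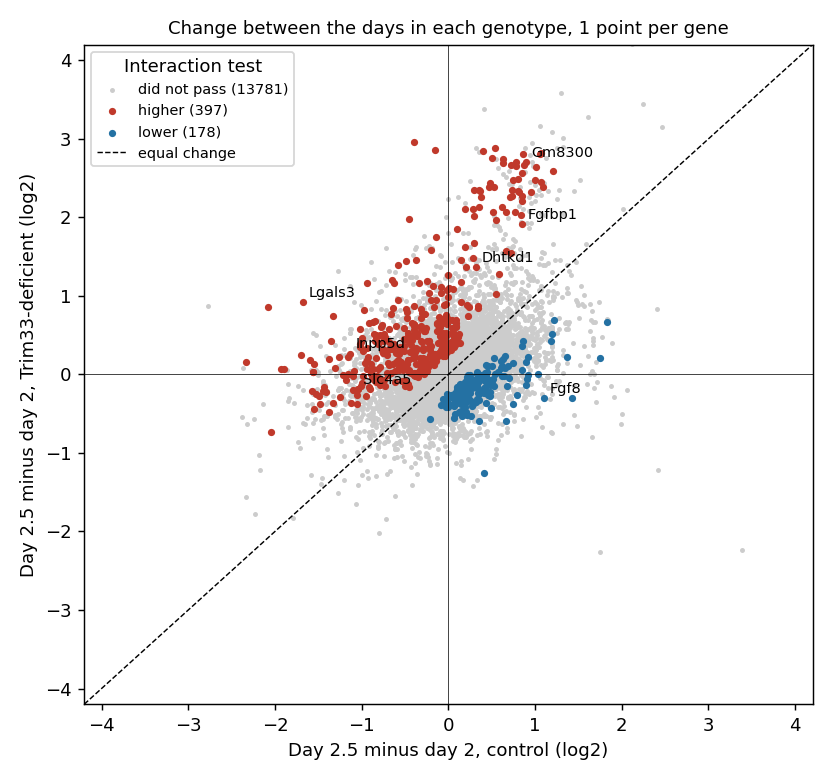
Log2 change from day 2 to day 2.5 in control (horizontal) against Trim33-deficient bodies (vertical), 1 point per gene, coloured by the interaction test as higher (397, red) or lower (178, blue), with the dashed line marking an equal change. Lgals3 and Inpp5d fell in control, and Gm8300, a two-cell-like gene, rose in both genotypes and more in Trim33-deficient bodies. Of all genes, 1 lies outside the axes.

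These counts depended on which libraries were in the fit. With each library left out in turn, the calls ranged from 99 to 700 higher and from 20 to 517 lower, with both lowest values without day 2 control replicate 3 and both highest without day 2 control replicate 2. Without the 3 libraries that stood apart, 1128 genes were higher and 839 lower of 14642 tested. That fit kept 3 libraries of day 2.5 Trim33-deficient bodies and 2 of each other group. The libraries left out were chosen for standing apart, so the spread within groups and the calls of this fit are not independent of that choice. Of the 575 genes, 104 (86 higher and 18 lower) kept their call in each of the 12 fits with a library left out. No call turned its direction in any alternative. For each called gene below that is given with its interaction, the number of these 12 fits that kept its call is given too. Each of these fits had 1 library fewer, and the total of calls fell in some and rose in others. It was 1217 without day 2 control replicate 2 and 945 without day 2 Trim33-deficient replicate 1. It was 833 without day 2.5 control replicate 1 and 727 without day 2.5 Trim33-deficient replicate 3. Why calls were lost or gained was not tested, and a lost call does not by itself show that a gene rests on 1 library. The interaction of T, a primitive streak gene, ran from -1.97 to -1.52 over these fits, while its call was kept in 5.

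**Figure D3:**
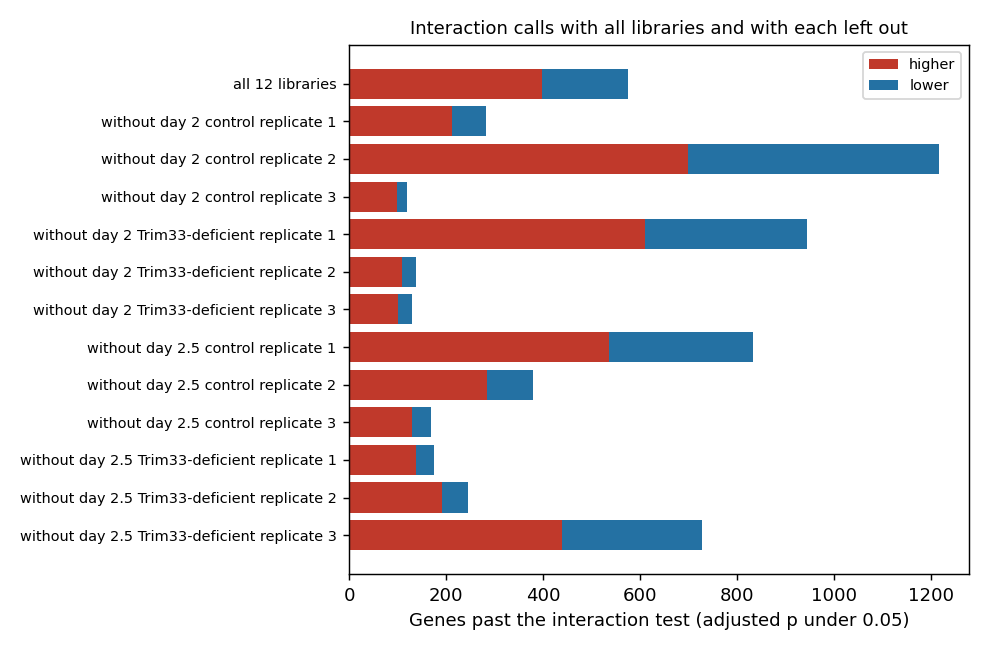
Number of genes past the interaction test (horizontal, genes) with all 12 libraries and with each library left out (vertical), higher in red and lower in blue. The bars run from 119 genes when replicate 3 of the day 2 controls is left out to 1217 when replicate 2 is, around 575 with all libraries.

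The genes with the smallest adjusted p and a higher effect included enzymes, a signalling phosphatase and regulators of transcription and translation. Dhtkd1, a mitochondrial enzyme of lysine breakdown, stood at 22.02, 26.3 and 26.4 CPM in control and 24.1, 23.3 and 24.1 CPM in Trim33-deficient replicates 1, 2 and 3 on day 2. On day 2.5 it stood at 31.6, 32.4 and 29.3 CPM in control and 63.3, 65.1 and 55.8 CPM in Trim33-deficient libraries. The genotypes overlapped on day 2 and separated on day 2.5, and the interaction was 1.05 ± 0.12 (log2, SE; 95% interval 0.79 to 1.30; edgeR adjusted p = 0.0017), kept in 12 of 12 fits. Slc4a5, a sodium bicarbonate cotransporter, went the other way in time. It stood at 55.98, 51.4 and 57.4 CPM in control and 61.9, 55.3 and 55.4 CPM in Trim33-deficient bodies on day 2, and at 28.5, 27.2 and 24.3 CPM and 51.9, 49.8 and 49.5 CPM on day 2.5. It fell in control (-1.04 ± 0.08 on the log2 scale), and its change without Trim33 did not pass (-0.19 ± 0.07). The interaction was 0.86 ± 0.11, kept in 12 of 12 fits.

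Inpp5d, a phosphatase that removes a phosphate from the lipid products of PI3-kinase, differed on both days. On day 2 it stood at 45.8, 43.1 and 47.8 CPM in control and 104, 79.1 and 76.5 CPM in Trim33-deficient libraries, and on day 2.5 at 23.1, 18.1 and 20.7 CPM and 114, 100.5 and 96.1 CPM. The genotypes did not overlap on either day, and the control values fell between the days (-1.13 ± 0.12), with an interaction of 1.40 ± 0.16, a 2.63-fold larger ratio, kept in 12 of 12 fits. Lgals3, the galactose-binding lectin galectin-3, had one of the largest interactions. It stood at 3.52, 6.34 and 5.98 CPM in control and 11.5, 7.06 and 7.81 CPM in Trim33-deficient libraries on day 2, and at 2.297, 1.42 and 1.196 CPM and 18.6, 14.7 and 15.4 CPM on day 2.5. Lgals3 fell in control, rose in Trim33-deficient bodies, and had an interaction of 2.59 ± 0.36 (edgeR adjusted p = 0.00335), kept in 12 of 12 fits.

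The other 9 of the 12 genes with the smallest adjusted p and a higher effect each kept their call in all 12 fits, and Stk31 among them is described with the germline genes. Cpeb2, which binds messages and controls their translation, had an interaction of 1.04 ± 0.15. It rose in Trim33-deficient bodies (1.09 ± 0.10), and its change in control did not pass (0.05 ± 0.11). Nelfa, a subunit of the complex that pauses RNA polymerase, moved from 145, 134 and 129.7 CPM in control and 129, 125 and 125 CPM without Trim33 on day 2 to 148, 126 and 145 CPM and 204, 206 and 205 CPM on day 2.5, an interaction of 0.66 ± 0.08. Ash2l, a subunit of the histone H3 methyltransferases of active promoters, fell in control (-0.73 ± 0.06) and had an interaction of 0.58 ± 0.08. Interactions were 0.96 ± 0.12 for Mreg, 0.43 ± 0.06 for Gclc, the catalytic subunit of the first enzyme of glutathione synthesis, 0.97 ± 0.13 for 4930548H24Rik and 0.93 ± 0.12 for Gm2373. All 12 genes had an edgeR adjusted p between 0.0017 and 0.00325.

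**Figure D4:**
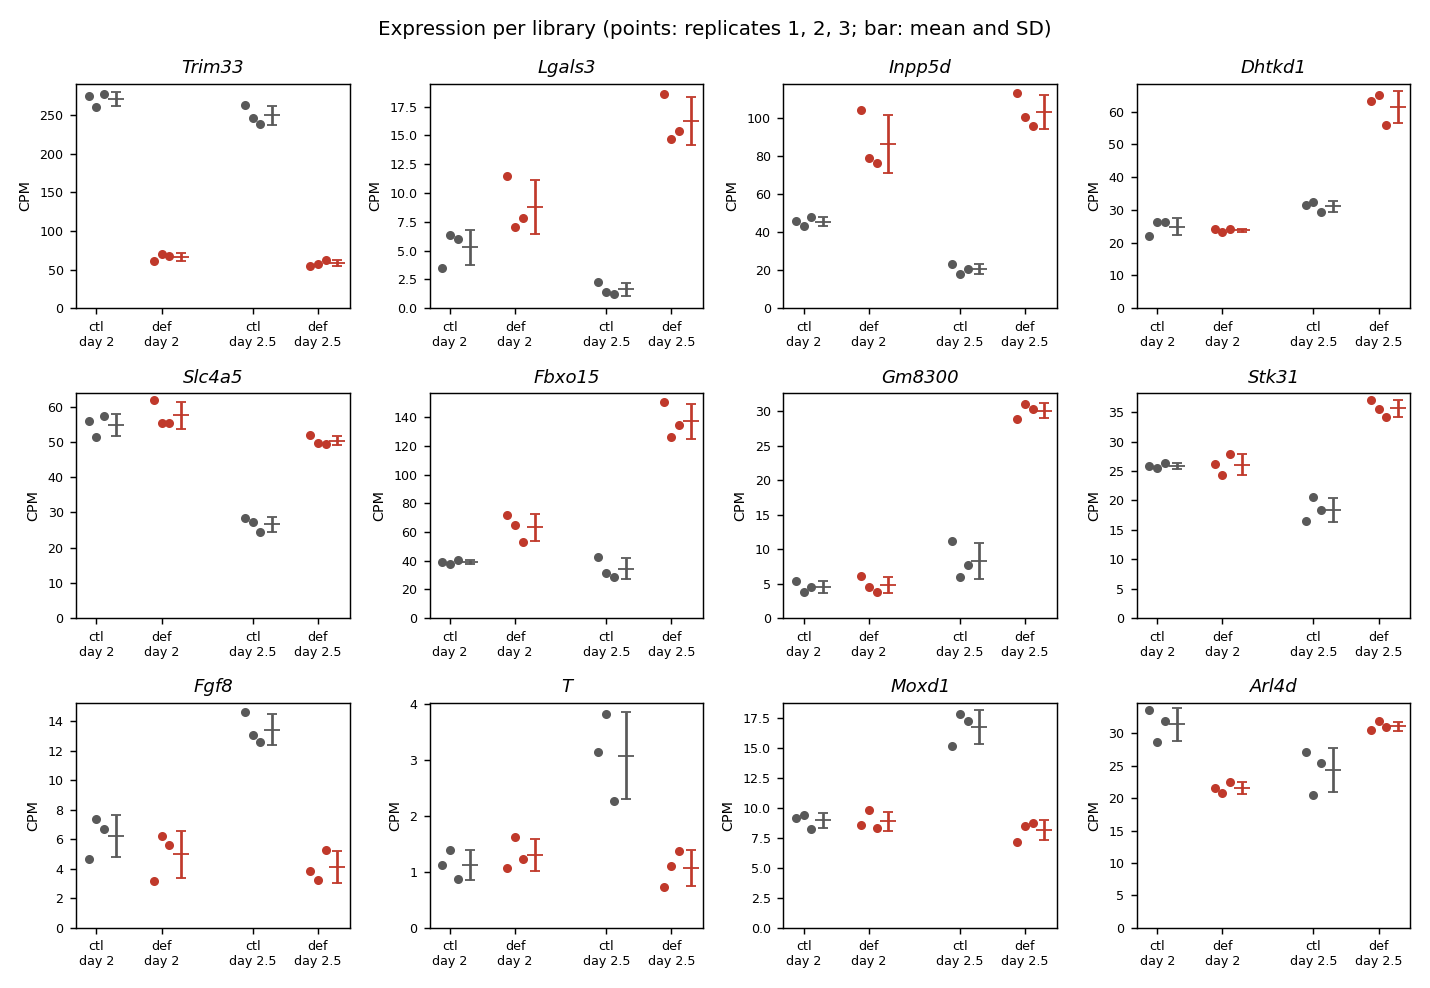
CPM in each library (points, replicates 1, 2 and 3 from left to right) with the mean and SD of each group of 3 (bars), for control (grey, ctl) and Trim33-deficient (red, def) bodies on both days. Lgals3, Inpp5d and Slc4a5 are lower in control on day 2.5 than on day 2, Dhtkd1, Fbxo15 and Gm8300 are highest in Trim33-deficient bodies on day 2.5, and Fgf8, T and Moxd1 are highest in control on day 2.5.

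The genes with the smallest adjusted p and a lower effect mostly rose with time in control bodies. Moxd1, a monooxygenase-like protein, stood at 9.21, 9.43 and 8.26 CPM in control and 8.59, 9.81 and 8.297 CPM in Trim33-deficient libraries on day 2, and at 15.2, 17.9 and 17.3 CPM and 7.201, 8.48 and 8.75 CPM on day 2.5. The genotypes overlapped on day 2 and not on day 2.5, and the interaction was -1.03 ± 0.17 (edgeR adjusted p = 0.00685). Jph3, a junctophilin that ties internal membranes to the cell surface, followed the same course, from 8.17, 8.35 and 7.71 CPM and 6.89, 7.81 and 7.498 CPM on day 2 to 14.5, 15.3 and 15.99 CPM in control and 7.27, 6.803 and 8.04 CPM without Trim33 on day 2.5 (-0.93 ± 0.16). Rragb, a GTPase that reports amino acid supply to mTOR, instead fell in Trim33-deficient bodies (-0.47 ± 0.07) and did not pass in control, with an interaction of -0.61 ± 0.10.

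Fndc3c1 and Klhl23 already differed on day 2 and differed more on day 2.5. Their interactions were -0.79 ± 0.13 and -0.72 ± 0.13. The ribosomal S6 kinase Rps6ka6 gave -0.43 ± 0.07, the cell cycle and chromatin gene Cdca7 -0.46 ± 0.08, the polarity gene Llgl1 -0.43 ± 0.07 and the translation factor Paip1 -0.53 ± 0.10. Interactions were -0.67 ± 0.12 for Cdr2l, -0.66 ± 0.12 for Limd2 and -0.49 ± 0.09 for Nkain1. These 12 genes kept their calls in all 12 fits, and their edgeR adjusted p lay between 0.00685 and 0.0107.

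Several of the largest interactions were those of genes near the detection limit. Slfn2, a Schlafen gene, stood at 0.641, 0.0773 and 0.236 CPM in control on day 2 and at 1.38, 1.46 and 1.25 CPM without Trim33 on day 2.5, where 3 counts equal 0.179 to 0.318 CPM. Its interaction was 3.36 ± 0.86, kept in 4 of 12 fits. Loxhd1 (3.01 ± 0.80), Rapgef4, an exchange factor that responds to cyclic AMP (2.93 ± 0.71), and the sperm motility kinase Smok4a (2.49 ± 0.60) also had levels close to this limit, and kept their calls in 4, 5 and 4 fits. Fitted values of genes this low depend on the prior count. On the other side, the chloride channel Ano1 (-1.67 ± 0.44), the receptor kinase adaptor Dok5 (-1.55 ± 0.39) and the acyltransferase Mogat2 (-1.25 ± 0.32) each kept their calls in 4 of 12 fits.

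The gene lists here and below were chosen with earlier results of these data known, so their shares of calls are a description. Genes of the two-cell-like state held the highest share of calls of any list. This state is a rare one in stem cell cultures, in which genes of the embryo after its first division are expressed, among them the Zscan4 and Usp17l families. Of 22 members tested 12 were higher, 0 lower and 10 did not pass, against 2.77% and 1.24% of all genes, and the median interaction was 1.58, against -0.00347 over all genes. None passed on day 2, where the median effect was -0.03, and 21 rose on day 2.5, with a median of 1.53. The list's summed level was 283 to 347 CPM in control and 310 to 355 CPM in Trim33-deficient libraries on day 2. On day 2.5 it was 346 to 458 CPM in control and 702 to 746 CPM without Trim33. In whole bodies, more cells in such a state and more RNA per cell cannot be told apart, here and for every group below.

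Several members are near-identical copies, and how reads that match several copies were counted is not given in the sources used here, so their number as separate genes is uncertain. To show how alike they are, the stretch around the start of transcription is given for 3 copies from RefSeq (build GRCm38.p6), matched by symbol. Zscan4c lies at chr7:11005649-11005771 on the plus strand, Zscan4d at chr7:11166133-11166255 on the minus strand and Zscan4f at chr7:11397842-11397964 on the plus strand. Capitals mark the longest run, of 55 bases, that is the same in the promoter windows of all 4 Zscan4 copies found in RefSeq of 6 tested. These copies were chosen for display after their values were seen.
Zscan4c: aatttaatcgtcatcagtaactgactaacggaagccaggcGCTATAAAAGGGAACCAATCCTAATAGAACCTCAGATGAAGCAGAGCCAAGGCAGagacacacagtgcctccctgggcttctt
Zscan4d: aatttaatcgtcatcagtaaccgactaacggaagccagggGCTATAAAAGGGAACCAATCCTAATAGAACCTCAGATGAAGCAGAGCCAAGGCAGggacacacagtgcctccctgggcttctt
Zscan4f: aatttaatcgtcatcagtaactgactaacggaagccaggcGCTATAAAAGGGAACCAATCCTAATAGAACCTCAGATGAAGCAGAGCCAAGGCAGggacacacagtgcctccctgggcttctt
Over their aligned windows, Zscan4c and Zscan4f were identical at 99.3% of 277 bases and Zscan4c and Zscan4d at 97.2% of 289 bases. Zscan4b, which is not shown, matched Zscan4c at 95.3% of 277 bases, Zscan4f at 95.7% of 300 and Zscan4d at 97.7% of 266. The shared run was found in 4 of 32851 promoter windows, those of the Zscan4 copies. It holds TATAAA, the core of the TATA box, which is present on either strand in 13.6% of all these windows.

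The 3 copies shown followed the same course. Zscan4c stood at 6.65, 4.41 and 6.45 CPM in control and 7.85, 4.13 and 5.101 CPM in Trim33-deficient libraries on day 2, and at 12.7, 7.196 and 8.94 CPM and 30.6, 28.5 and 25 CPM on day 2.5. Zscan4d reached 71.9, 77.98 and 69.5 CPM and Zscan4f 13.5, 13.2 and 12.3 CPM in Trim33-deficient libraries on day 2.5, against 36.95, 21.8 and 27.8 CPM and 5.84, 2.49 and 3.84 CPM in control. On day 2 the genotypes overlapped for all 3 copies and on day 2.5 they did not, with interactions of 1.62 ± 0.33, 1.54 ± 0.34 and 1.86 ± 0.38, kept in 6, 4 and 7 of 12 fits. Zscan4a gave 1.52 ± 0.28 (edgeR adjusted p = 0.0168, kept in 10). Zscan4b, which also holds the shared run, and Zscan4e did not pass the interaction test.

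Gm8300, a gene with no assigned function in the files, gave the smallest adjusted p of the list. It stood at 5.37, 3.71 and 4.49 CPM in control and 6.05, 4.44 and 3.81 CPM in Trim33-deficient libraries on day 2 and at 11.2, 5.95 and 7.75 CPM and 28.9, 31.1 and 30.3 CPM on day 2.5. It rose in control (0.89 ± 0.22) and more without Trim33 (2.70 ± 0.19), an interaction of 1.81 ± 0.30 (edgeR adjusted p = 0.0069, kept in 12 of 12 fits). Gm5662 gave 1.96 ± 0.39, kept in 9. The other calls were Arg2, Sp110, Tmem92, Usp17la, Usp17lc and Usp17le, and the whole list ran from -0.05 to 2.05. The list had 1 call when replicate 3 of the day 2 controls was left out and 17 when replicate 1 of the day 2.5 controls was. It had 18 without the 3 libraries that stood apart, a fit that called 1128 of 14642 genes higher.

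The PRAME family, a multicopy family active in the early embryo and germ line, was chosen for description after its values were seen and gets no test of its own. Of 11 members tested 8 were higher and 0 lower, none passed on day 2, and all 11 rose on day 2.5. Over all genes 2.77% were higher and 1.24% lower in the interaction, and 22.0% rose on day 2.5. Gm12794 stood at 13.1, 9.36 and 11.9 CPM in control and 12.7, 10.4 and 9.89 CPM without Trim33 on day 2, and at 24.5, 15.01 and 21.7 CPM and 56.2, 54.1 and 46.8 CPM on day 2.5. Its interaction was 1.42 ± 0.24 and that of Pramef6 1.83 ± 0.34, each kept in all 12 fits. The family ran from 0.29 to 1.99, with a median of 1.41, and its copies share the same doubt about read counting.

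Germline genes also held more higher calls than all genes. Of 23 tested 8 were higher, 0 lower and 15 did not pass (median interaction 0.67), against 2.77% higher and 1.24% lower of all genes. The list's median change over time was -0.43 in control and 0.18 in Trim33-deficient bodies. Stk31, a germ cell protein with kinase and tudor domains, stood at 25.9, 25.4 and 26.4 CPM in control and 26.2, 24.2 and 27.9 CPM in Trim33-deficient libraries on day 2, and at 16.5, 20.5 and 18.3 CPM and 37.2, 35.5 and 34.3 CPM on day 2.5. It fell in control and rose without Trim33, an interaction of 0.94 ± 0.12 (edgeR adjusted p = 0.0017, kept in 12 of 12 fits). Rpl10l, a ribosomal protein paralog of male germ cells, gave 0.76 ± 0.14 and Piwil2, a piRNA-binding Argonaute protein, 0.80 ± 0.17, kept in 12 and 9 fits. The other calls were Dazl, Hormad1, Slc25a31, Taf7l and Tex19.1. With replicate 3 of the day 2 controls left out the list had 2 calls, as it had without replicate 2 or 3 of the day 2 Trim33-deficient bodies.

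**Figure D5:**
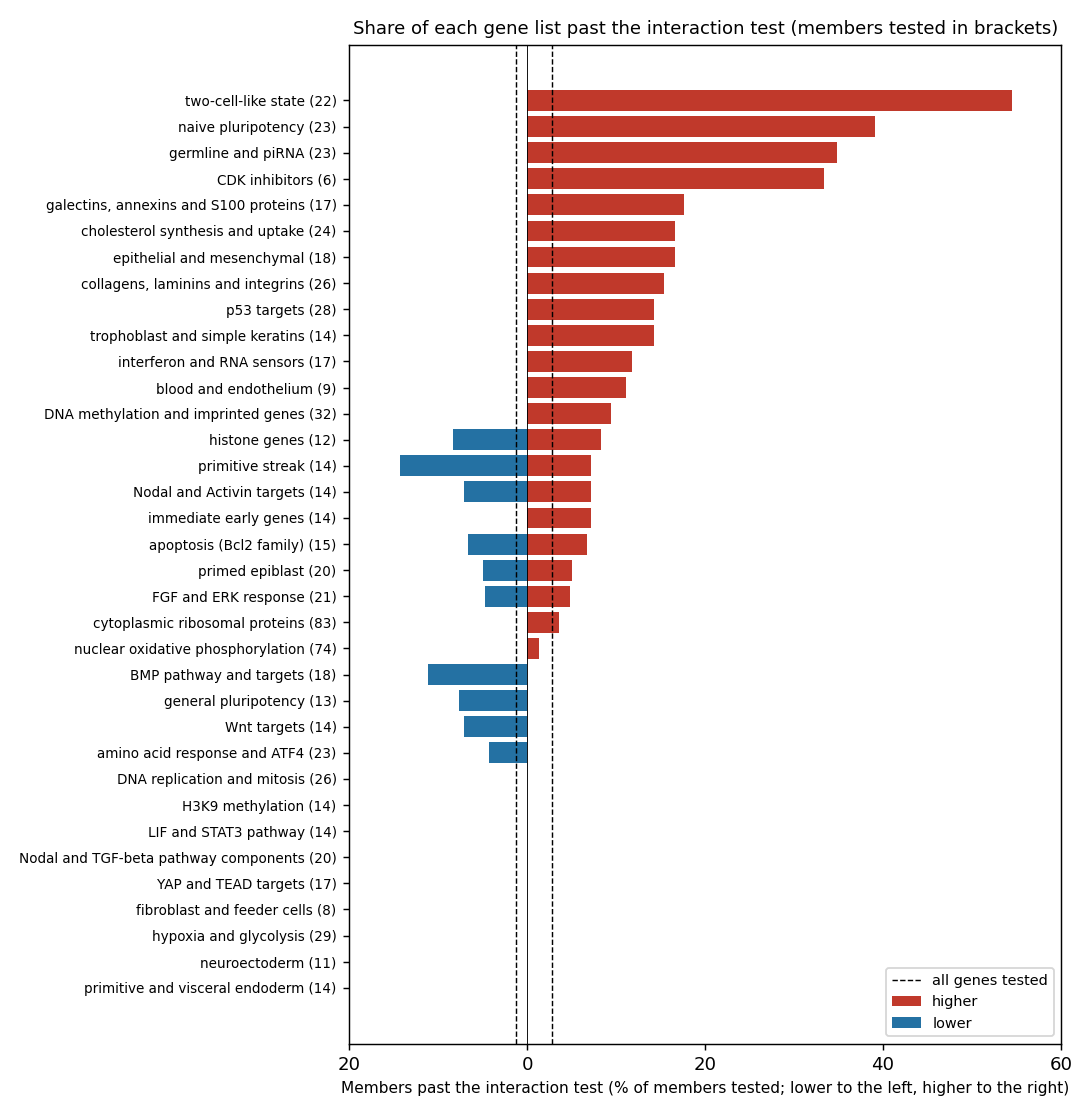
Share of each list's tested members past the interaction test (horizontal, % of members, lower to the left and higher to the right), with the number tested in brackets and dashed lines at the shares over all genes (2.77% and 1.24%). Two-cell-like, naive pluripotency and germline genes have the longest bars, all to the right, and 9 of the 35 lists drawn have no call. The TIF1 family and the RNA preparation genes, also without a call, are not drawn.

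Naive pluripotency genes, which mark the ground state that stem cells leave as they differentiate, had 9 members higher, 0 lower and 14 that did not pass of 23 tested. Over all genes 2.77% were higher and 1.24% lower. The list's median interaction was 0.79, from a median effect of 0.48 on day 2 to 1.33 on day 2.5. In control bodies the median member fell by 0.53 between the days, while in Trim33-deficient bodies it stood 0.29 higher. Fbxo15, an F-box gene specific to stem cells and early embryos, stood at 38.7, 37.4 and 40.5 CPM in control and 71.5, 65.1 and 52.9 CPM in Trim33-deficient libraries on day 2, and at 42.5, 31.6 and 28.8 CPM and 150.4, 126 and 135 CPM on day 2.5. Its interaction was 1.30 ± 0.19, a 2.47-fold larger ratio on day 2.5 (edgeR adjusted p = 0.0069, kept in 12 of 12 fits).

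The transcription factors Klf2 and Esrrb, both parts of the naive network, followed. Klf2 stood at 39.5, 42.9 and 48.2 CPM in control and 84.3, 62.1 and 62.01 CPM in Trim33-deficient libraries on day 2, and at 31.96, 22.9 and 22.9 CPM and 115, 93.3 and 86.8 CPM on day 2.5 (1.25 ± 0.23). Esrrb stood at 45.9, 53.3 and 49.8 CPM and 137, 109 and 95.02 CPM on day 2, and at 26.8, 30.5 and 26.8 CPM and 152, 129.5 and 110.5 CPM on day 2.5 (1.04 ± 0.20). For both genes the genotypes did not overlap on either day, control fell between the days, and the calls were kept in 8 and 9 of 12 fits. Dppa3, Dppa4, Dppa5a, Manba, Pecam1 and Tfcp2l1 were also higher. Nanog, a core pluripotency factor named here after its values were seen, was the 1 member with an interaction below 0 (-0.68 ± 0.21, edgeR adjusted p = 0.0972, which did not pass). It stood at 96.7, 140.1 and 105 CPM in control and 65.2, 84.8 and 77.5 CPM in Trim33-deficient libraries on day 2, and at 163, 209 and 175 CPM and 68.7, 77.1 and 81.5 CPM on day 2.5, lower with Trim33 loss on both days (-0.58 ± 0.15 and -1.26 ± 0.15), without overlap. The list's interactions ran from -0.68 to 2.06. The list had 1 call with replicate 3 of the day 2 controls or replicate 2 of the day 2 Trim33-deficient bodies left out. It had 13 without day 2 Trim33-deficient replicate 1, where 611 of 14565 genes were higher. Without the 3 libraries that stood apart it had 18, where 1128 of 14642 genes were higher.

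Genes of general pluripotency and of the primed state had calls in single members, where 2.77% of all genes were higher and 1.24% lower. Among 13 general pluripotency genes Lin28b, an RNA-binding protein that blocks let-7 microRNAs, was lower (-0.46 ± 0.09, kept in 10 of 12 fits) and 12 did not pass. Of 20 primed epiblast genes Grhl2, an epithelial transcription factor, was higher (0.34 ± 0.09) and Sfrp2, a secreted Wnt antagonist, lower (-0.58 ± 0.12), with a median of -0.13. Their calls were kept in 3 and 6 fits. None of 14 genes of the LIF and STAT3 pathway, which holds stem cells in the naive state, passed the interaction test. Of these genes 6 rose on day 2 and 9 on day 2.5, against 5.94% and 22.0% of all genes. The member with the smallest p was Ptpn11 (-0.19 ± 0.07, edgeR adjusted p = 0.148). No member passed with any 1 library left out. Without the 3 libraries that stood apart 5 were higher, where 1128 of 14642 genes were. By limma voom with sample quality weights 2 were higher and 1 lower, where 1456 and 1246 of 14356 genes were.

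Primitive streak genes split. Of 14 tested 1 was higher, 2 lower and 11 did not pass (median -0.19), against 2.77% higher and 1.24% lower of all genes. None passed on day 2. T, or brachyury, the mesoderm transcription factor, stood at 1.12, 1.39 and 0.866 CPM in control and 1.06, 1.62 and 1.23 CPM in Trim33-deficient libraries on day 2, and at 3.15, 3.82 and 2.27 CPM and 0.727, 1.097 and 1.37 CPM on day 2.5. It rose in control (1.42 ± 0.29) and stood at -0.30 ± 0.32 in Trim33-deficient bodies, which did not pass, an interaction of -1.72 ± 0.43 (edgeR adjusted p = 0.0373).

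Fgf8, a growth factor of the streak, stood at 4.64, 7.35 and 6.69 CPM in control and 3.18, 6.19 and 5.59 CPM in Trim33-deficient libraries on day 2, and at 14.6, 13.1 and 12.6 CPM and 3.85, 3.22 and 5.297 CPM on day 2.5. The genotypes overlapped on day 2 and not on day 2.5, as for T, and the interaction was -1.41 ± 0.32 (edgeR adjusted p = 0.0252). Snai1, a repressor of epithelial genes, went the opposite way, with 5.12, 3.02 and 5.04 CPM in control and 10.04, 10.5 and 10.9 CPM without Trim33 on day 2.5 (1.09 ± 0.28). The calls of T, Fgf8 and Snai1 were kept in 5, 6 and 3 of 12 fits. Beside these genes, the summed level of fibroblast markers, which mesenchymal cells share, rose in control. It was 48.1 to 55.2 CPM on day 2 and 71.0 to 93.4 CPM on day 2.5, against 39.4 to 44.7 and 43.8 to 51.1 CPM without Trim33. Members contributed unevenly: over all libraries Tagln reached 40.2 CPM and Thy1 25.7 CPM, while Col1a1 reached 6.48 CPM and Dcn 8.18 CPM. Of the 11 markers 3 were below 1 CPM in every library, and of 8 tested none passed the interaction test. Interactions of the tested markers were above 0 for 4 and below 0 for 4, with a median of -0.07. The part of these markers in the results was not tested.

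For the signals that Trim33 is known to serve, the calls were few in number, beside 2.77% higher and 1.24% lower over all genes. In lists this short, 1 call is already above these shares. Of 20 Nodal and TGF-beta pathway components, ligands, receptors and SMADs among them, none did (median -0.08), and the smallest p was that of Furin, a protease that processes Nodal (-0.66 ± 0.20, edgeR adjusted p = 0.0862). Of 14 Nodal and Activin targets 1 was higher and 1, Fgf8, lower, with a median of -0.00270. Of 18 genes of the BMP pathway 2 were lower and none higher (median 0.10), a receptor and a SMAD. The receptor Bmpr1a stood at 166, 176 and 177 CPM in control and 142, 136 and 142 CPM without Trim33 on day 2.5, and overlapped between the genotypes on day 2 (-0.38 ± 0.08, kept in 10 of 12 fits). Smad1, which carries BMP signals, stood at 30.3, 29.4 and 28.96 CPM and 20.3, 21.1 and 22.3 CPM on day 2.5 (-0.46 ± 0.10, kept in 6).

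Among FGF and ERK response genes 1 of 21 was higher and 1 lower (median 0.23), against 2.77% and 1.24% of all genes. Fgfbp1, a carrier of fibroblast growth factors, stood at 10.01, 6.73 and 8.81 CPM in control and 39.8, 31.6 and 30.8 CPM in Trim33-deficient libraries on day 2, and at 18.1, 13.8 and 13.98 CPM and 127, 115 and 138 CPM on day 2.5. It rose with time in both genotypes, and the interaction was 1.06 ± 0.21, kept in 8 of 12 fits. The receptor Fgfr1 gave -0.24 ± 0.06, kept in 4. Without the 3 libraries that stood apart, 13 of these genes were higher, in a fit that called 1128 of 14642 genes higher. Of 14 immediate early genes Klf6, a transcription factor, was higher (0.52 ± 0.09, kept in 12 of 12). Among 14 Wnt targets T was the single call, and none of 17 YAP and TEAD targets passed, where the calcium-binding Anxa1 had the smallest p (1.77 ± 0.51, edgeR adjusted p = 0.0601).

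Trophoblast and epithelial genes held a few higher calls, where 2.77% of all genes were higher and 1.24% lower. Of 14 trophoblast genes and simple keratins 2 were higher and none lower (median 0.63). The summed level of the list was 562 to 664 CPM in control and 1067 to 1259 CPM without Trim33 on day 2.5, against 641 to 658 and 614 to 927 CPM on day 2. Most of this sum came from members without a call, as the called Krt8 and Ascl2 averaged 32.7 and 17.3 CPM without Trim33 on day 2.5. The keratin Krt8 stood at 9.53, 10.4 and 7.55 CPM in control and 11.2, 10.6 and 11.7 CPM in Trim33-deficient libraries on day 2, and at 13.98, 18.03 and 13.9 CPM and 31.4, 30.4 and 36.2 CPM on day 2.5, and rose in both genotypes (0.82 ± 0.18, kept in 7). Ascl2, a transcription factor of trophoblast and of Wnt-responsive cells, fell in control and gave 1.37 ± 0.31, kept in 8. Fn1, or fibronectin, Grhl2 and Snai1 were the 3 higher calls of 18 epithelial and mesenchymal genes, with Fn1 at 0.76 ± 0.16, kept in 5. Pecam1, an adhesion molecule that naive stem cells share with endothelium, was the 1 call of 9 blood and endothelial genes (0.90 ± 0.21, kept in 3).

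Matrix, adhesion and lectin genes held a few higher calls, against 2.77% higher and 1.24% lower of all genes. Of 26 collagens, laminins and integrins 4 were higher, none lower and 22 did not pass (median 0.19): Fn1, Itgav, Itgb4 and the basement membrane protein Nid1. Itgb4, an integrin of epithelial junctions, gave 0.85 ± 0.15 (kept in 12 of 12) and Nid1 0.96 ± 0.21 (kept in 6). Itgb4 was the single call in 6 of the 12 fits with 1 library left out, the one without replicate 3 of the day 2 controls among them. Without day 2 Trim33-deficient replicate 1, 6 members were higher, where 611 of 14565 genes were. Of 17 galectins, annexins and S100 proteins 3 were higher, none lower and 14 did not pass (median 0.40), with Lgals9 at 1.29 ± 0.24 (kept in 12 of 12) and S100a10 at 0.67 ± 0.18 (kept in 3) beside Lgals3. Lgals9 stood at 4.53, 3.73 and 4.09 CPM in control and 10.2, 10.7 and 9.999 CPM without Trim33 on day 2.5.

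Many cholesterol and p53 genes already differed on day 2, and fewer passed the interaction test. Of 24 cholesterol genes 19 rose on day 2 and 21 on day 2.5, and 4 passed the interaction test, all higher (median 0.16). Over all genes 5.94% rose on day 2, 22.0% rose on day 2.5 and 2.77% were higher in the interaction. Cyp51, the lanosterol demethylase of cholesterol synthesis, stood at 165, 176 and 166 CPM in control and 293, 281 and 291 CPM in Trim33-deficient libraries on day 2, and at 149.6, 143 and 149.7 CPM and 358, 338 and 314 CPM on day 2.5. The genotypes did not overlap on either day. With time it fell in control (-0.20 ± 0.05) and rose without Trim33 (0.22 ± 0.05), an interaction of 0.42 ± 0.07 that was kept in 12 of 12 fits. The squalene synthase Fdft1 gave 0.45 ± 0.10, kept in 9.

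Of 28 p53 targets 15 rose on day 2 and 21 on day 2.5, and 4 were higher in the interaction (median 0.23). The matching shares over all genes were 5.94%, 22.0% and 2.77%. Mdm2, the ubiquitin ligase that restrains p53, stood at 200.1, 152 and 193 CPM in control and 294, 256 and 281 CPM in Trim33-deficient libraries on day 2, and at 197, 162 and 182 CPM and 456, 435 and 406 CPM on day 2.5 (0.65 ± 0.14, kept in 5). The change in control was -0.01 and did not pass, and Mdm2 rose by 0.64 in Trim33-deficient bodies. Eda2r gave 0.52 ± 0.10 (kept in 10) and Trp53inp1 0.72 ± 0.15 (kept in 6), with Polk the other call. The list had no call with replicate 3 of either genotype of day 2 left out, and 11 without the 3 libraries that stood apart. The latter fit called 1128 of 14642 genes higher. Of 6 CDK inhibitors Cdkn1c (0.73 ± 0.18) and Cdkn2b (0.97 ± 0.23) were higher, each kept in 4 of 12 fits.

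Other lists gave 1 to 3 calls each, where 2.77% of all genes were higher and 1.24% lower. Of 32 DNA methylation and imprinted genes Cdkn1c, Mest (0.28 ± 0.07, kept in 3) and the methylcytosine oxidase Tet1 (0.66 ± 0.14, kept in 5) were higher (median 0.28). Without the 3 libraries that stood apart 10 members were higher, where 1128 of 14642 genes were. Of 17 interferon genes and RNA sensors Ddx58, the cytoplasmic RNA sensor RIG-I (0.75 ± 0.15, kept in 9), and Ifitm3 (0.39 ± 0.10, kept in 4) were higher. In the Bcl2 family of 15 genes the survival gene Bcl2l1 was higher (0.41 ± 0.09, kept in 6) and Bok, a pro-apoptotic member, lower (-0.67 ± 0.16, kept in 5). Of 23 ATF4 genes Phgdh, the first enzyme of serine synthesis, was lower (-0.44 ± 0.11, kept in 3). Without day 2 control replicate 2, 4 others were higher, where 700 of 14570 genes were. Without the 3 libraries that stood apart 6 were higher. Of 12 histone genes Hist1h4i was higher (1.27 ± 0.33, kept in 2) and the linker histone H1f0 lower (-0.52 ± 0.13, kept in 4). Of 83 cytoplasmic ribosomal proteins Rpl10l, Rpl39l (1.00 ± 0.17, kept in 12) and Rplp2 (0.40 ± 0.08, kept in 10) were higher, near the background share, and of 74 oxidative phosphorylation genes Cox5b (0.45 ± 0.12, kept in 2) was.

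Further lists had no interaction call. Of 26 DNA replication and mitosis genes 13 fell on day 2 and 20 on day 2.5, and none passed the interaction test (median -0.09; Plk1 -0.24 ± 0.08, edgeR adjusted p = 0.0932). By limma voom with sample quality weights 7 of them were lower, where 1246 of all 14356 genes were. Over all genes 3.90% fell on day 2 and 20.7% on day 2.5 in the edgeR fit. No call was made among 29 hypoxia and glycolysis genes (P4ha2 0.57 ± 0.21; 1 higher and 5 lower without the 3 libraries that stood apart), 14 genes of H3K9 methylation (Zfp57 0.85 ± 0.25), 14 of endoderm (Col4a1 -0.30 ± 0.12), 11 of neuroectoderm (Ncam1 0.47 ± 0.14) and 8 fibroblast markers (Thy1 -0.85 ± 0.30). In the alternatives at most 3 genes of each of the last 4 lists were called in either direction. Over all genes, 1128 were higher and 839 lower without the 3 libraries that stood apart. The 4 genes of the TIF1 family, to which Trim33 belongs, did not pass either, with Trim28 at 0.13 ± 0.11. Among the RNA preparation genes Neat1 had the smallest p (1.22 ± 0.31, edgeR adjusted p = 0.061), and the median of these 5 genes, Rn45s among them, was -3.62. The libraries rich in Rn45s, at 7.87% and 11.9%, were of the day 2 Trim33-deficient and day 2.5 control groups. Both groups enter the interaction with a minus sign, and the part of these libraries in that median was not tested. A p that misses the threshold does not show that an effect was the same on both days.

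A small group of genes lost or turned the effect they had on day 2. In Arl4d, a small GTPase-like protein of vesicle traffic, the order of the genotypes turned: control stood at 33.6, 28.6 and 31.9 CPM and Trim33-deficient libraries at 21.5, 20.8 and 22.6 CPM on day 2, against 27.04, 20.5 and 25.4 CPM and 30.5, 31.8 and 30.9 CPM on day 2.5. The genotypes did not overlap on either day, and the interaction was 0.88 ± 0.13 (edgeR adjusted p = 0.00388), kept in 12 of 12 fits. Dpp4 (0.88 ± 0.18, kept in 8), the germ cell chaperone Fkbp6 (0.72 ± 0.15, kept in 8), the meiotic protein Syce1 (0.90 ± 0.19, kept in 8), Rplp2 and, in the other direction, the zinc finger gene Zfp251 (-0.59 ± 0.13, kept in 7) also turned. These genes other than Rplp2, and the 3 named next, were chosen for mention after their values were seen.

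Olig1, a helix-loop-helix transcription factor, was raised on day 2 and not on day 2.5. It stood at 11.9, 12.8 and 11.5 CPM in control and 21.9, 18.3 and 18.3 CPM in Trim33-deficient libraries on day 2, and at 25.9, 28.7 and 28.1 CPM and 28.2, 29.3 and 25.7 CPM on day 2.5. Control had risen to the level of the Trim33-deficient libraries, with overlap, and the interaction was -0.67 ± 0.13, kept in 11 of 12 fits. The desmosomal cadherin Dsg2 rose in both genotypes with a smaller gap on day 2.5 (0.64 ± 0.07 on day 2 and 0.20 ± 0.06 on day 2.5, interaction -0.44 ± 0.09, kept in 10). Slc16a6, a transporter, fell with Trim33 loss on day 2 (-0.67 ± 0.11) and stood at -0.01 ± 0.11 on day 2.5, which did not pass. Its interaction was 0.67 ± 0.16, kept in 6 of 12 fits.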

How the data were processed

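RNA was sequenced from 12 libraries of embryoid bodies. The authors deposited raw counts of reads per gene symbol, made with STAR and HTSeq against mm9, per the submitters' processing notes. DESeq is named there too. Versions, annotation, strand setting and the treatment of multi-mapped reads were not found in the labels, so overlapping and multicopy genes are uncertain. The 5 rows that name no gene, such as reads in no feature, were left out, and 39.3 to 43.9% of the reads in each file were assigned to a gene. In day 2.5 Trim33-deficient replicate 1, 27 gene names turned into dates were restored by row position.

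Counts were tested with edgeR 4.0.16 (R 4.3.3), using TMM factors, the filterByExpr filter by group, robust quasi-likelihood estimation with 1 mean for each of 4 groups over 12 libraries (8 residual degrees of freedom, no replicate block), and Benjamini-Hochberg adjustment over the 14356 genes kept of 24015 rows (19581 with any count). CPM was computed on TMM-scaled sizes. Standard errors were the fold change over the root of F, and 3 counts were taken as the floor, which covers counting error only. The code was tested on simulated data. The labels speak of independent pairs but tie no replicate number to one, so p-values measure only the spread among the libraries, which may be partly technical.

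The members and the 37 gene lists were chosen with earlier results of these data known. Genes were named by rule: Trim33, the 12 smallest adjusted p and 5 largest interactions each way with a group mean of at least 1 CPM, and up to 3 called members per list, otherwise its member with the smallest p. Other calls of a list are named without values, genes outside the rule are marked, and some genes within it are not reported here. Alternatives were other size factors and filters, DESeq2 1.42.0, limma 3.58.1 voom with quality weights, replicate blocks, and leaving out libraries or the Rn45s row. Promoter sequences are from RefSeq (GRCm38.p6), matched by symbol. That build differs from the authors' mm9, so no coordinate was used to find counts.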

Additional observations from a re-analysis of the deposited data

Results flagged for a closer look

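Each gene here is listed because its effect of Trim33 loss differed between day 2 and day 2.5 in the interaction test (edgeR, adjusted p under 0.05). Values are interactions on the log2 scale, and no explanation was weighed. The number of fits that kept each call is not repeated here and is given where the gene is described.

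Among the genes with the smallest adjusted p, the effect grew for Dhtkd1 (1.05), Slc4a5 (0.86), Mreg (0.96), Nelfa (0.66), Inpp5d (1.40), Stk31 (0.94), 4930548H24Rik (0.97), Gm2373 (0.93), Gclc (0.43), Ash2l (0.58) and Cpeb2 (1.04). It moved down for Rragb (-0.61), Moxd1 (-1.03), Fndc3c1 (-0.79), Rps6ka6 (-0.43), Cdca7 (-0.46), Llgl1 (-0.43), Cdr2l (-0.67), Jph3 (-0.93), Klhl23 (-0.72), Nkain1 (-0.49), Paip1 (-0.53) and Limd2 (-0.66). The largest differences were those of Slfn2 (3.36), Loxhd1 (3.01), Rapgef4 (2.93), Lgals3 (2.59) and Smok4a (2.49), and in the other direction T (-1.72), Ano1 (-1.67), Dok5 (-1.55), Fgf8 (-1.41) and Mogat2 (-1.25).

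Pluripotency and early embryo genes that differed between the days were Fbxo15 (1.30), Klf2 (1.25), Esrrb (1.04), Pecam1 (0.90), Lin28b (-0.46), Sfrp2 (-0.58), Grhl2 (0.34), Gm8300 (1.81), Gm5662 (1.96), Zscan4a (1.52), Zscan4c (1.62), Zscan4d (1.54), Zscan4f (1.86), Pramef6 (1.83), Gm12794 (1.42), Rpl10l (0.76), Piwil2 (0.80), Xist (1.00) and Tsix (0.69). Signalling and lineage genes were Snai1 (1.09), Bmpr1a (-0.38), Smad1 (-0.46), Fgfbp1 (1.06), Fgfr1 (-0.24), Klf6 (0.52), Krt8 (0.82), Ascl2 (1.37), Fn1 (0.76), Itgb4 (0.85), Nid1 (0.96), Lgals9 (1.29) and S100a10 (0.67).

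Metabolic and stress genes were Cyp51 (0.42), Fdft1 (0.45), Eda2r (0.52), Trp53inp1 (0.72), Mdm2 (0.65), Phgdh (-0.44), Ddx58 (0.75), Ifitm3 (0.39), Bcl2l1 (0.41), Bok (-0.67), Cdkn1c (0.73), Cdkn2b (0.97), Tet1 (0.66), Mest (0.28), H1f0 (-0.52), Hist1h4i (1.27), Rpl39l (1.00), Rplp2 (0.40) and Cox5b (0.45). Genes whose effect turned or faded were Arl4d (0.88), Dpp4 (0.88), Fkbp6 (0.72), Syce1 (0.90), Zfp251 (-0.59), Dsg2 (-0.44), Olig1 (-0.67) and Slc16a6 (0.67).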

How the results depend on the processing

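The direction of the interaction did not turn for any of the 575 genes in the 23 alternatives, but the number of calls moved widely, and 103 genes kept their call in every alternative. Higher and lower calls were 397 and 178 with all libraries. With each library left out they ranged from 99 to 700 and from 20 to 517, and the share that was higher from 57.5% to 83.2%. They were 1456 and 1246 by limma voom with sample quality weights, 732 and 437 with the replicate block, and 1128 and 839 without the 3 libraries that stood apart. DESeq2 gave 554 and 277, and leaving out the 2 libraries rich in Rn45s 570 and 270. The share that was higher was 69.0% in the edgeR fit, 53.9% by voom and 57.3% without the 3 libraries. RLE factors, upper-quartile factors, other filters and leaving out the Rn45s row gave 391 to 413 higher and 160 to 211 lower calls. The cause of these shifts was not tested.

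The replicate block adds the replicate number to the fit. Same-numbered libraries of the 2 genotypes deviated together with correlations of 0.07, 0.17 and -0.08 on day 2 and -0.01, -0.03 and -0.01 on day 2.5. Across the days they were 0.36, 0.45 and 0.03 for control and 0.18, -0.02 and 0.09 for Trim33-deficient libraries. Not every pair exceeded 0.1, and not every library correlated most with its own number, so the numbers were not taken to pair the libraries. A replicate block within each day gave 495 and 217 calls.

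The calls on day 2 were 1413 in the edgeR fit. By voom they were 2782, without the 2 Rn45s-rich libraries 814, and with each library left out 514 to 1617. The calls over time in control were 2313, by voom 3590 and with each library left out 1235 to 2393. Those in Trim33-deficient bodies were 2300, by voom 4481, without the 3 libraries 3741, and with each library left out 1101 to 2780. Slfn2 lay at 0.0773 to 0.641 CPM in control on day 2, around the level of 3 counts, where fitted values depend on the prior count.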

Other observations

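Xist, the RNA that coats the inactive X chromosome, and Tsix, its antisense partner, were noticed after their values were seen. Xist stood at 11.4, 14.3 and 11.96 CPM in control and 11.7, 13.6 and 12.3 CPM in Trim33-deficient libraries on day 2, and at 8.203, 8.79 and 6.49 CPM and 15.2, 17.2 and 14.5 CPM on day 2.5. The genotypes overlapped on day 2 and not on day 2.5, control fell between the days (-0.69 ± 0.14), and the interaction was 1.00 ± 0.18 (edgeR adjusted p = 0.00993), kept in 12 of 12 fits. Tsix gave 0.69 ± 0.16, kept in 6 of 12 fits. The 2 genes overlap on opposite strands and the strand setting of the counting is not given in the sources used here, so their reads cannot be told apart.

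Genes that the files name by a Gm number, some of which have another symbol in RefSeq, were also counted after the data were seen. Of 236 such genes tested 18 were higher and 0 lower in the interaction, and they make up 1.64% of the genes tested and 4.53% of those called higher. Several are members of the multicopy families described for the two-cell-like state and the PRAME family.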
